A study of Mus musculus with 15 samples.

Results

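Transcripts of 10 genes that set the passage of a cell from G1 into S phase were followed in derivatives of NMuMG, a line of mouse mammary gland epithelial cells. The 10 were the D cyclins Ccnd1, Ccnd2 and Ccnd3, the E cyclins Ccne1 and Ccne2, the kinases Cdk4 and Cdk6, and the kinase inhibitors Cdkn1a, Cdkn1b and Cdkn2c. They were taken by gene symbol from the 13893 genes listed in the first dataset and the 15023 listed in the second, and all 10 passed the filter on low values in each. The group was chosen by measured values of these same libraries, since Ccnd2 was picked for being higher in FAM3C KO, so its members are only described in that comparison.

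The study asked how PCBP1, an RNA-binding protein, acts on transcription in these cells through FAM3C, a secreted protein, and LIFR, the receptor for leukemia inhibitory factor. Total RNA was depleted of ribosomal RNA and sequenced. In the first dataset all 11 lines carried shRNA knockdown of PCBP1. One RNA sample was sequenced per line, from the unaltered shPCBP1 line, from 3 control (CT) clones given Cas9 but no gene-specific guide, from 3 clones with FAM3C KO, from 3 with LIFR KO and from 1 line with both genes knocked out. The unaltered line and the CT clones together form the shPCBP1 group (n = 4). In the second dataset 2 samples of NMuMG without PCBP1 knockdown (the labels give no treatment, and the methods describe cells with a scrambled shRNA) were set beside 2 samples of shPCBP1 cells. Knockout clones were made by excising a fragment of coding sequence and were isolated as colonies, a step not described for the unaltered line. Whether the samples of the second dataset came from separate cultures is not stated, and p-values there measure only the spread between these samples, which may be technical.

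D cyclins bind Cdk4 and Cdk6, and E cyclins bind Cdk2, and both kinase pairs phosphorylate the retinoblastoma protein, which then releases the E2F factors that drive S phase genes. Cdkn2c (p18) belongs to the INK4 inhibitors, which bind Cdk4 and Cdk6 alone, while Cdkn1a (p21, a p53 target) and Cdkn1b (p27) belong to the Cip/Kip inhibitors, which bind cyclin-kinase complexes. In the mammary gland Ccnd1 is the D cyclin best known for its part in lobuloalveolar growth and in breast cancer.

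Values were normalized counts scaled to library size (CPM), and limma was run on log2(CPM + 0.1), where the changes of genes with low values come out too small. A gene was called at a Benjamini-Hochberg adjusted p under 0.07, the threshold of the study. If the lowest value of each library of the first dataset stands for a single read, the totals were 16031859 to 46901675 reads. Whether it does is not known, and neither is the depth of the second dataset. Pcbp1 stood at 299.5 ± 17.7 CPM (SD, n = 2) in NMuMG and 14.2 ± 0.0757 in shPCBP1 (SD, n = 2), and Fam3c stood at 34.4 ± 8.23 in FAM3C KO (SD, n = 3) and 53.7 ± 5.13 in shPCBP1 (SD, n = 4; limma adjusted p = 0.232). Lifr did not separate LIFR KO (26.3 ± 10.5, SD, n = 3) from shPCBP1 (32.3 ± 6.48, SD, n = 4), and knockout lines were chosen in the study by PCR and immunoblot. LIFR KO clones 1, 2 and 3 gave 34.9, 29.3 and 14.6 CPM of Lifr, against 25.8 to 40.2 CPM in the shPCBP1 lines. Lifr RNA of clones 1 and 2 thus lay within the shPCBP1 range. Of 12 epithelial markers looked for, Cdh1 (149 to 362 CPM over all 15 libraries) and Krt18 (402 to 1202) were present throughout. So were Krt8, Krt19, Esrp2, Ocln and Dsp. Epcam, Cldn3 and Esrp1 were listed in neither dataset. Cldn4 (second dataset only) reached 0.124 CPM and Cldn7 (first dataset only) 0.525 CPM. Of the markers of other cell types that are listed, Cd68 (macrophages) was at 4.29 to 10.8 CPM in the first dataset and 1.06 to 1.66 in the second. Cdh5 (endothelium) reached 1.76 CPM and the others of these stayed below 1 CPM. LIFR KO clones 2 and 3 and the double KO stood apart from the other 8 libraries of the first dataset. In those 3 libraries Spearman's correlation across 12603 genes between GC content and the difference from shPCBP1 was -0.74 to -0.68, against -0.27 to 0.22 elsewhere, and mitochondrial genes held 7.16 to 8.58% of the listed CPM against 3.14 to 4.06%. Results of LIFR KO are therefore given also for clone 1 alone or after a correction for GC content. With clone 1 alone LIFR KO has a single library, so the spread comes from the other groups. P-values and calls of that fit cannot tell the knockout from a difference of that clone, and only its log2 differences are to be read.

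Levels of different genes were set side by side per kilobase of annotated exon. The length was the union of the exons of all annotated transcripts, so a gene that uses only short transcripts comes out too low. On that scale Ccnd1 led the 10 in shPCBP1 of the first dataset at 264.5 CPM per kb (mean of 4 lines). Cdk4 followed at 73.8, Cdkn1a at 35.2, Ccnd2 at 22.5, Cdk6 at 21.1 and Cdkn1b at 18.9. The remaining 4 were Cdkn2c at 11.3, Ccne1 at 10.1, Ccne2 at 8.89 and Ccnd3 at 7.95. Ccnd2, Cdk6 and Cdkn1b, and likewise the last 4, lay close to each other, so their order is not firm. Spread among the 4 shPCBP1 lines, as a coefficient of variation of CPM, ran from 2.63% for Cdk6 to 17.7% for Ccnd2.

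Knockdown of PCBP1 was compared with its absence in the second dataset. Ccnd1 about doubled (1.97-fold), both E cyclins and Cdkn1a rose more than 2-fold, and Ccnd2 and Cdkn1b fell. All 10 genes were called, 6 higher and 4 lower, but 80.1% of the 11384 tested genes were called too (42.1% higher and 38.0% lower). Groups that do not overlap were found for all 10 and for 89.0% of all genes, so neither count sets the group apart, and the sizes below carry the comparison. An exact permutation test of 2 against 2 samples cannot go below p = 0.333.

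Among the D cyclins, Ccnd1 stood at 447 and 443 CPM in NMuMG and at 871 and 881 CPM in shPCBP1. Its log2 fold change was 0.98 (SE 0.0197, limma adjusted p = 1.06e-11). Ccnd2 went the other way, from 185 and 197 CPM to 127 and 128 CPM (log2 fold change -0.58, SE 0.0296, limma adjusted p = 1.14e-08). For both genes the gap between groups was several times the gap within either. Ccnd3 was at 57.8 and 63.1 CPM in NMuMG and 54.0 and 56.1 CPM in shPCBP1, a log2 fold change of -0.13 (limma adjusted p = 0.0115) that is hardly larger than the gap between its NMuMG samples. That call was lost with no filter on low values (limma adjusted p = 0.0931), without NMuMG sample 2 (log2 fold change -0.07, 0.0867), without shPCBP1 sample 1 (0.203) and without shPCBP1 sample 2 (0.0825).

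Taken as shares of the D cyclin CPM per exon kilobase, Ccnd1 rose from 78.3% and 77.0% in NMuMG to 90.4% and 90.3% in shPCBP1. The share of Ccnd2 went from 16.2% and 17.1% to 6.58% in each shPCBP1 sample, and that of Ccnd3 from 5.44% and 5.89% to 3.01% and 3.09%. The shares of the 2 groups did not overlap for any of the 3 D cyclins, but neither did the CPM of 89.0% of all genes. The 3 shares add up to the whole, so each depends on the others. Their sizes also depend on the exon lengths used, 4.709 kb for Ccnd1, 9.409 kb for Ccnd2 and 8.775 kb for Ccnd3. Ccnd3 itself hardly changed (log2 fold change -0.13) while Ccnd1 rose (0.98).

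**Figure D1:**
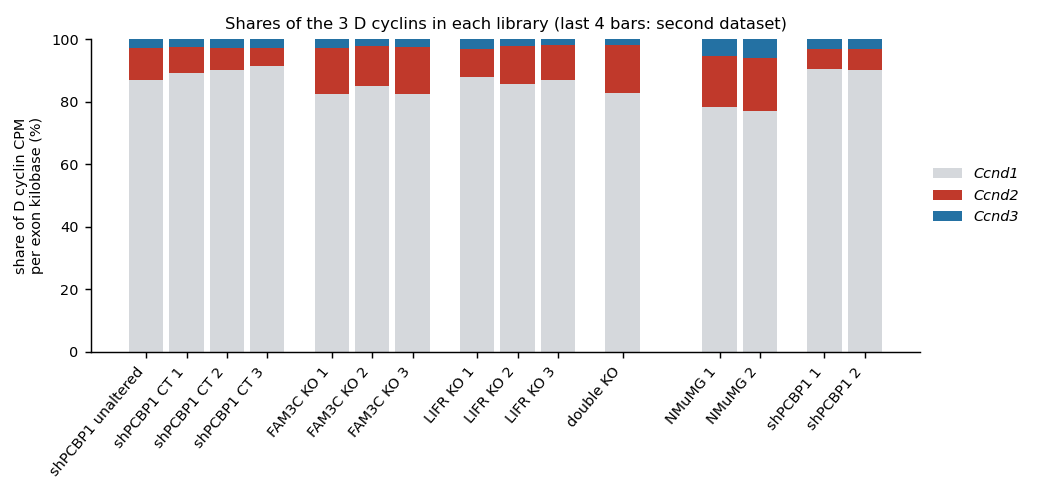
Bars give, for each of the 15 libraries, the percentage of the summed CPM per exon kilobase of Ccnd1, Ccnd2 and Ccnd3 that each of them holds; the last 4 bars are the second dataset. The Ccnd2 segment shrinks from 16.2% and 17.1% in NMuMG to 6.58% in shPCBP1 of that dataset, and in the first dataset it spans 5.63 to 10.1% in shPCBP1, 12.7 to 15.2% in FAM3C KO and 15.4% in the double KO.

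The E cyclins were the scarcest of the members in NMuMG. Ccne1 rose from 5.08 and 5.60 CPM to 13.6 and 13.3 CPM (log2 fold change 1.32, SE 0.0749, limma adjusted p = 2.91e-08). Ccne2 rose from 3.53 and 3.37 CPM to 7.75 and 7.80 CPM (log2 fold change 1.15, SE 0.0867, limma adjusted p = 3.1e-07). The 2 genes thus moved by like amounts, 2.50-fold and 2.22-fold, and Ccne1 lies on chromosome 7 (GRCm38, 38097984 to 38107534) and Ccne2 on chromosome 4 (11191351 to 11204779). Their neighbours, the other tested genes that start within 1 Mb, were higher too in the shPCBP1 samples. The median log2 difference from the NMuMG mean was 0.34 and 0.36 near Ccne1 (4 genes) and 0.36 and 0.35 near Ccne2 (15 genes).

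The kinases moved little. Cdk4 was at 131 and 128 CPM in NMuMG and 106 CPM in each shPCBP1 sample, a fall of 1.22-fold (limma adjusted p = 5.99e-07). Cdk6 measured 121 and 118 CPM without and 125 and 129 CPM with the knockdown, for a log2 difference of 0.08 (limma adjusted p = 0.0132) that turned to -0.01 after quantile normalization (limma adjusted p = 0.654), so that no direction can be given for Cdk6. The ratio of Cdk4 to Cdk6, per exon kilobase, went from 4.64 and 4.67 to 3.66 and 3.55.

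The inhibitors of the Cip/Kip kind parted. Cdkn1a was at 55.0 and 56.8 CPM in NMuMG and at 123 and 122 CPM in shPCBP1 (log2 fold change 1.13, SE 0.0271, limma adjusted p = 3.53e-11). Cdkn1b was at 63.0 and 66.0 CPM and at 45.1 and 45.7 CPM (log2 fold change -0.51, SE 0.0322, limma adjusted p = 7.65e-08). Per exon kilobase Cdkn1a was slightly above Cdkn1b already in NMuMG (means of 15.7 and 14.2 CPM per kb). That order rests on the exon lengths used, since as CPM Cdkn1a was the lower there. Cdkn2c changed least of the 3, from 15.0 and 16.3 CPM to 17.6 and 19.1 CPM (log2 fold change 0.23, limma adjusted p = 0.00415), and lost its call without shPCBP1 sample 2 (adjusted p = 0.0999). Neighbour medians had the sign of the gene for Cdkn2c (0.35 and 0.17), Ccnd1 (0.34 and 0.32) and Cdk4 (-0.21 and -0.24). They had the opposite sign for Cdk6 (-0.19 and -0.18) and Cdkn1b (0.24 and 0.20). For Ccnd2, Ccnd3 and Cdkn1a they were -0.08 to 0.07. What such regional differences contribute was not tested.

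**Figure D2:**
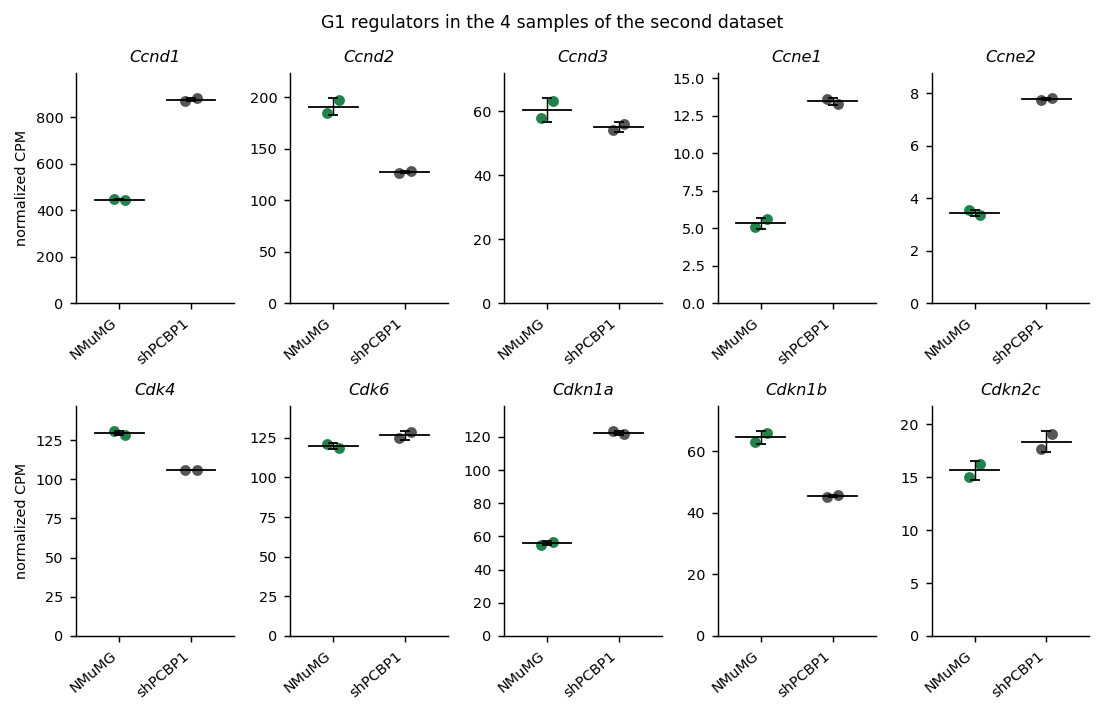
Each panel plots normalized CPM (linear axis from 0) of 1 gene in the 2 NMuMG and the 2 shPCBP1 samples of the second dataset; points are samples, lines are means and bars are SD. Ccnd1, Ccne1, Ccne2 and Cdkn1a are far higher in shPCBP1, and Ccnd2 and Cdkn1b are lower. For Ccnd3, Cdk6 and Cdkn2c the gap between the groups is smaller than the wider of the gaps within a group.

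The regions just before the starts of Cdkn1a and Cdkn1b are printed because these inhibitors moved in opposite directions, a choice made after their values were seen. The sequences are 250 bases upstream of a start in RefSeq (GRCm38.p6), given in the direction of transcription, and capitals mark GC boxes, the letters GGGCGG or, on the other strand, CCGCCC. That of Cdkn1a is chr17:29093519-29093768 on the plus strand, before the second of its 2 listed starts, and that of Cdkn1b is chr6:134920151-134920400 on the plus strand.
Cdkn1a: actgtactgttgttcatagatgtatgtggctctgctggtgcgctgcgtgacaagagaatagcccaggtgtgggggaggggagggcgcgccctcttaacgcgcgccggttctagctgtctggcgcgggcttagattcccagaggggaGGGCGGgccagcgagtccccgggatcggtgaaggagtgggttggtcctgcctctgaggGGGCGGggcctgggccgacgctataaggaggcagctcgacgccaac
Cdkn1b: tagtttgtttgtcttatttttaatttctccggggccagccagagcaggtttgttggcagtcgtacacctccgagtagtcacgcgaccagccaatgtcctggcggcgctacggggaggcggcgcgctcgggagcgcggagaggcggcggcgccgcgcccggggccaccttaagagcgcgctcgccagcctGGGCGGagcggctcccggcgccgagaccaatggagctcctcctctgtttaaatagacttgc
The Cdkn1a window holds 2 GC boxes, which begin 104 and 46 bases before the start, and the Cdkn1b window holds 1, which begins 61 bases before it. The other Cdkn1a window, before its first start (chr17:29090729-29090978, not printed), holds 0. Windows were listed for 7 of the 10 genes (10 windows), and 7 of the 10 windows had a GC box, against 32.7% of the 32851 windows of all genes. Neither the letters TTCNNNGAA, bound by STAT factors, nor TTTCCCGC, TTTCGCGC, TTTGCCGC and TTTGGCGC, bound by E2F factors, was found on either strand in the 10 windows, while 7.02% and 1.86% of all windows held them. A match describes letters and does not show a bound site.

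In the FAM3C KO comparison Ccnd2 was higher in all 3 clones, the value that put it in the group, and Cdkn2c and Cdkn1b were lower in all 3. The other 7 genes overlapped with shPCBP1. Of 12621 tested genes, 39 (0.309%) were called in this comparison, 0.0872% higher and 0.222% lower. Of the members 1, Ccnd2, was past the threshold, and 3 did not overlap (1 higher and 2 lower) where 22.7% of all genes did not overlap (10.1% higher and 12.5% lower). Because the rule drew on this comparison, no p-value is given for the 10 genes. The choice favoured finding Ccnd2 past the threshold, and nothing is read from those counts.

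Ccnd2 (chromosome 6, GRCm38, 127125162 to 127152193) measured 261 CPM in the unaltered line, and the CT clones gave 220.5, 182 and 183 CPM. The FAM3C KO clones gave 373, 377 and 398 CPM. The means differed 1.83-fold (log2 fold change 0.87, SE 0.126), and the lowest FAM3C KO clone was 113 CPM above the highest shPCBP1 line. The unaltered line, for which no isolation of a colony is described, was the highest of its group. Over 20 alternative settings the log2 fold change stayed between 0.81 and 1.01. These settings reuse the values that chose the gene, so the range is a description only.

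The order of Ccnd2 levels in the first dataset was shPCBP1, LIFR KO, double KO and FAM3C KO. The LIFR KO clones gave 250.5, 246 and 249.8 CPM, within the range of shPCBP1, so that these neighbours do not differ beyond their spread. The double KO, at 338 CPM, was above all LIFR KO and shPCBP1 lines and below all FAM3C KO clones as deposited. After GC correction its log2 difference from the shPCBP1 mean (1.17) was above those of the FAM3C KO clones (0.82 to 0.97), and LIFR KO clones 2 and 3 (0.74 and 0.71) were above the shPCBP1 lines, so both places in the order depend on that correction. Of the D cyclin CPM per exon kilobase, Ccnd2 held 5.63 to 10.1% in shPCBP1, 12.7 to 15.2% in FAM3C KO, 9.22 to 12.1% in LIFR KO and 15.4% in the double KO. Its 7 tested neighbours within 1 Mb did not share the increase, with medians of -0.09 to 0.00 (log2 difference from the shPCBP1 mean) in the 3 FAM3C KO clones.

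The genes whose log2 values ran most closely with Ccnd2 over the 11 libraries were Ogdhl (Pearson's r = 0.992), Cfap77 (0.938), Gpr141 (0.924), C1rl (0.923) and Ccl2 (0.922). They were the 5 highest of 12621, and the libraries share their groups and, in 3 cases, the GC shift, so the values are descriptive. Without LIFR KO clones 2 and 3 and the double KO (8 libraries, an alternative added after seeing the data) r was 0.931 to 0.996 for these 5 genes. Cfap77 and Gpr141 had low values in shPCBP1, at 0.121 to 0.998 and 0.162 to 0.378 CPM. In FAM3C KO they were at 1.64 to 2.83 and 1.64 to 2.16 CPM. Ogdhl, which encodes a protein like the E1 subunit of oxoglutarate dehydrogenase, was at 1.66 to 4.24 CPM in shPCBP1, 9.20 to 10.4 in FAM3C KO, 3.54 to 4.42 in LIFR KO and 8.06 in the double KO. Ccl2, a chemokine, was at 118 to 178 CPM in shPCBP1, 246 to 270.1 in FAM3C KO, 171 to 233 in LIFR KO and 262 in the double KO. In Ogdhl and in Ccl2 the double KO lay nearer to FAM3C KO than to shPCBP1. The genes were picked for following Ccnd2 over libraries that include the double KO. That choice favours such a place, and nothing is read from it.

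Ccnd1 measured 1129.8 CPM in the unaltered line, the CT clones gave 1206, 1157 and 1490.3 CPM, and the FAM3C KO clones 1033, 1268 and 1083 CPM. For Ccnd3 the shPCBP1 lines, in the same order, gave 67.7, 61.9, 66.0 and 83.4 CPM, and FAM3C KO 63.6, 60.4 and 58.0 CPM. In each gene CT clone 3 was the highest shPCBP1 line and the groups overlapped, with log2 fold changes of -0.14 (SE 0.147) and -0.19 (SE 0.234).

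Both E cyclins overlapped with shPCBP1. For Ccne1 the unaltered line gave 24.5 CPM, the CT clones 26.5, 27.1 and 30.0 CPM, and the FAM3C KO clones 17.8, 25.0 and 19.9 CPM. FAM3C KO clone 2 alone made these groups overlap (log2 fold change -0.38, SE 0.237). For Ccne2 shPCBP1 gave 26.4, 35.5, 27.2 and 35.2 CPM, while FAM3C KO gave 29.0, 27.0 and 26.1 CPM (log2 fold change -0.17, SE 0.246).

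For Cdk4 shPCBP1 gave 228, 219, 295 and 216 CPM, FAM3C KO gave 213, 227 and 211 CPM, CT clone 2 held the highest value and the other 6 lines spanned 211 to 228. For Cdk6 shPCBP1 gave 288, 291, 305 and 299 CPM, and FAM3C KO gave 325, 278 and 334 CPM, which reached both above and below the narrow shPCBP1 range. The log2 fold changes were -0.13 (SE 0.179) and 0.07 (SE 0.141).

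Of the inhibitors, Cdkn2c gave 26.2 CPM in the unaltered line, 31.3, 34.7 and 29.5 CPM in the CT clones, and 19.2, 17.2 and 19.5 CPM with FAM3C knocked out. The log2 fold change was -0.70 (SE 0.234), a 1.62-fold lower mean. Its 13 neighbours within 1 Mb had medians of -0.05 to 0.04 in the same 3 clones. Cdkn1b gave 83.2, 95.3, 83.5 and 82.1 CPM in shPCBP1, against 74.4, 67.3 and 76.7 CPM in FAM3C KO (log2 fold change -0.24, SE 0.115), and the gap between the groups was 5.38 CPM. Cdkn1a split the FAM3C KO clones, at 82.3 and 65.3 CPM in clones 1 and 3 and 152 CPM in clone 2, against 120, 110, 120 and 151 CPM in shPCBP1. Without clone 2 its log2 fold change went from -0.41 (SE 0.273) to -0.76, and without clone 3 to -0.15.

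**Figure D3:**
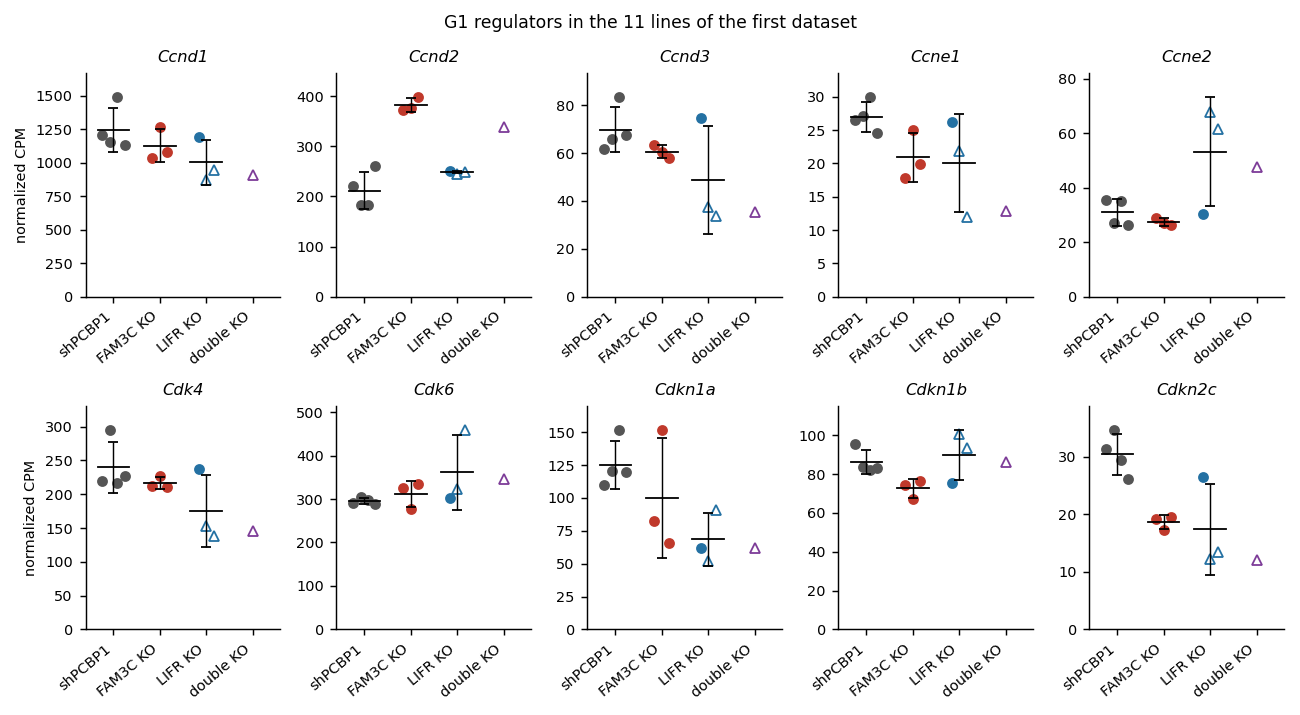
Each panel plots normalized CPM (linear axis from 0) of 1 gene in the 11 lines of the first dataset; points are lines, horizontal bars are group means and vertical bars are SD, and open triangles mark LIFR KO clones 2 and 3 and the double KO. Only Ccnd2 has all FAM3C KO clones above shPCBP1, Cdkn2c and Cdkn1b have all of them below, and in all but Ccnd2, Cdkn1a and Cdkn1b the open triangles lie outside the values of LIFR KO clone 1 and shPCBP1.

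LIFR KO was compared with the same 4 shPCBP1 lines, a contrast the choice of the genes did not use but which shares its controls with the FAM3C KO contrast. Cdkn1a was lower in all 3 clones but was not called. Cdkn2c was called, lower by 1.85-fold on average but not in clone 1, and the remaining 8 genes were not called. In all, 816 genes (6.47%) were called, 115 higher (0.911%) and 701 lower (5.55%). After median-ratio rescaling the split was 190 higher and 288 lower, and the median over all tested genes was -0.16 (log2) as deposited and 0.00 after rescaling. Of the members 1, Cdkn2c, was called, in the lower direction, and 1, Cdkn1a, did not overlap, where 17.2% of all genes did not overlap and 13.2% lay below. Neither count sets the group apart.

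Against the 4 Cdkn1a values of shPCBP1 given above (110 to 151 CPM), the LIFR KO clones gave 62.2, 52.2 and 90.9 CPM. The groups did not overlap (two-sided exact permutation p = 0.0286, the smallest that 3 against 4 samples allow, reached by 1 of 10 genes). The log2 fold change was -0.90 (SE 0.273), or -0.74 relative to the median of all genes. The limma adjusted p of 0.0799 missed the threshold, and over 21 alternative settings it ran from 0.0495 to 0.46. Clone 1, the library without the GC shift, was 1.00 lower on the log2 scale with no second library like it. After a correction for GC content the 3 clones stood at -0.94, -0.77 and -0.02, so clone 3 then lay within the shPCBP1 lines and the adjusted p was 0.327.

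Cdkn2c was at 26.6 CPM in LIFR KO clone 1, within the shPCBP1 range of 26.2 to 34.7, and at 12.2 and 13.4 CPM in clones 2 and 3. Its log2 fold change of -0.89 (SE 0.234, limma adjusted p = 0.0618) came from the 2 libraries with the GC shift. With clone 1 as the only LIFR KO library it was -0.19 (limma adjusted p = 0.687), and with the GC correction -0.65 (adjusted p = 0.130), with clones 2 and 3 still at -0.95 and -0.88. The call was also lost after median-ratio rescaling (limma adjusted p = 0.0743) and without any 1 of the 4 shPCBP1 lines (0.120 to 0.156). Since no shPCBP1 library shows the shift, it and the knockout cannot be told apart in clones 2 and 3.

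Clone 1 and the other 2 clones parted in the same way in several members that were not called. Ccnd3 was at 74.6 CPM in clone 1 and 37.5 and 33.8 CPM in clones 2 and 3, and Cdk4 was at 237, 152 and 139 CPM. Ccne2 went the other way, at 30.4 CPM in clone 1 and 67.7 and 61.7 CPM in clones 2 and 3. Neighbours within 1 Mb parted likewise. In clones 2 and 3 their median log2 differences were -0.77 and -0.78 near Ccnd3, -0.67 and -0.64 near Cdk4, and 0.36 and 0.35 near Ccne2. In clone 1 these medians were -0.13 to -0.03. The GC content of the exons of Ccnd3 (57.8%) was above that of 88.2% of tested genes, that of Cdk4 (54.8%) above 72.3% and that of Ccne2 (42.5%) above 8.9%. With clone 1 alone the log2 fold changes of Ccnd3, Cdk4 and Ccne2 were 0.11, -0.01 and -0.02, while with clones 2 and 3 alone they were -0.96, -0.71 and 1.07 and 8 of the 10 genes were called, as were 7234 genes in all. After GC correction Ccne2 of clones 2 and 3 stood at 0.76 and 0.56, still above the shPCBP1 lines (-0.20 to 0.16), while Cdk4 lay at -0.02 and -0.23 and Ccnd3 at -0.07 and -0.28.

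Cdk6 was not lower in clones 2 and 3. The LIFR KO clones gave 301, 323 and 459 CPM, and its exons (56.8% GC) are richer in GC than 83.4% of tested genes. After the GC correction clones 2 and 3 stood at 0.87 and 1.31 and the mean log2 fold change went from 0.26 (limma adjusted p = 0.194) to 0.76 (adjusted p = 0.128). Ccnd2 behaved alike, with its log2 fold change going from 0.25 (limma adjusted p = 0.176) to 0.59 (adjusted p = 0.0984) as clones 2 and 3 moved to 0.74 and 0.71. Neither gene was called with or without the correction. Medians of their neighbours within 1 Mb in clones 2 and 3, as deposited, were 0.33 and 0.38 for Cdk6 and -0.32 and -0.25 for Ccnd2.

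In the LIFR KO clones Ccnd1 gave 1194, 869 and 948 CPM (log2 fold change -0.32, limma adjusted p = 0.149). Ccne1 gave 26.3, 21.9 and 11.9 CPM (-0.50, limma adjusted p = 0.153), and Cdkn1b gave 75.5, 100.5 and 93.6 CPM (0.06, limma adjusted p = 0.738). All 3 overlapped with shPCBP1. The sign turned after the GC correction for Ccnd1 (0.11) and for Cdkn1b (-0.12). Neighbour medians in clones 2 and 3 were -0.55 and -0.45 for Ccnd1, -0.20 and -0.17 for Ccne1, and -0.23 and -0.32 for Cdkn1b. For Cdkn1a they were -0.61 and -0.54, and for Cdkn2c -0.07 and -0.18. The part of such regional differences in LIFR KO was not tested.

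**Figure D4:**
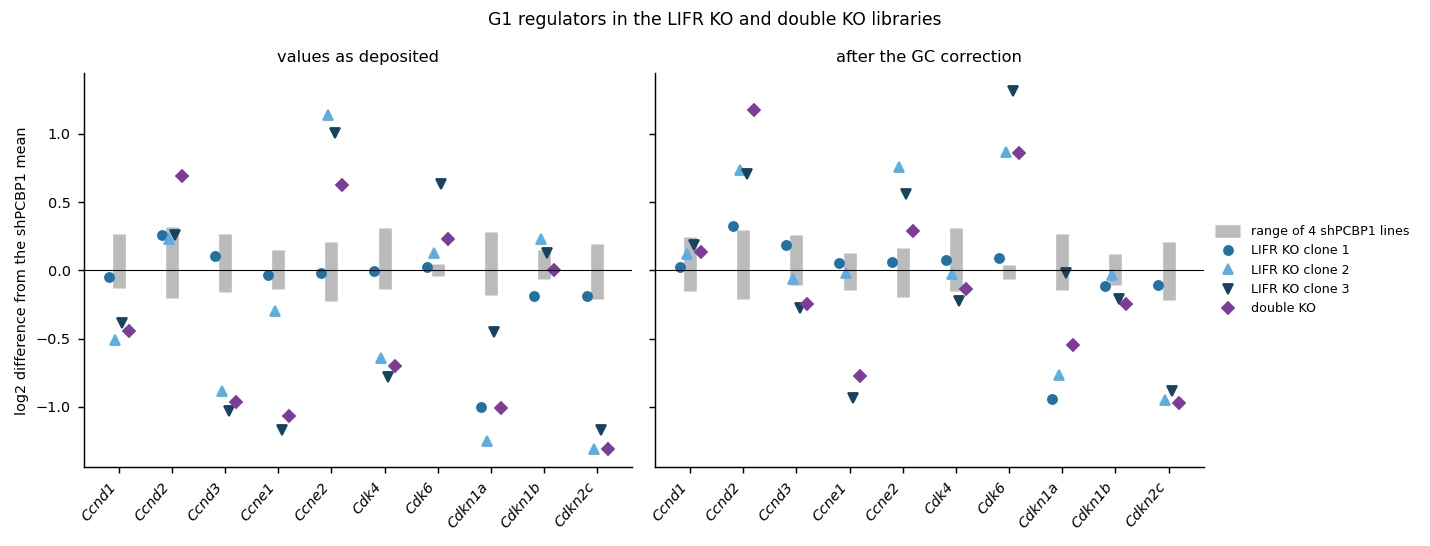
Points give the log2 difference of each LIFR KO clone and of the double KO from the mean of the 4 shPCBP1 lines for the 10 genes, and grey bars give the range of those lines; the left panel uses the deposited values and the right panel the values after a loess correction on GC content. Ccnd3 and Cdk4 of clones 2 and 3 move from between -1.03 and -0.64 to between -0.28 and -0.02, whereas Cdkn2c stays at -0.95 and -0.88, Ccne2 at 0.76 and 0.56, and Cdk6 rises to 0.87 and 1.31.

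The double KO is 1 library without a replicate, and it carries the GC shift, so it is best read beside LIFR KO clones 2 and 3. Its Ccnd2 value was 1.36-fold that of those 2 clones (geometric mean). The same ratio was near 1 for Ccnd1 (909 CPM, 1.00-fold), Ccnd3 (35.6 CPM, 0.998-fold), Cdk4 (146 CPM, 1.00-fold) and Cdkn2c (12.1 CPM, 0.951-fold). Lower ratios were seen in Ccne1 (12.8 CPM, 0.795-fold) and Ccne2 (47.5 CPM, 0.736-fold), of which Ccne1 lay between its values in clones 2 and 3. Cdk6 (347 CPM), Cdkn1a (61.7 CPM) and Cdkn1b (86.0 CPM) had ratios of 0.902, 0.896 and 0.887. Ccnd2 was thus the only member whose double KO value exceeded both of those clones.

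The rest of the cell cycle machinery was followed in lists of textbook genes, described by counts and medians with no test of a list. In the second dataset, where 42.1% of all tested genes were called higher and 38.0% lower, 11 of the 18 RB and E2F proteins were higher and 3 lower in shPCBP1. Among them were the activator E2f2 (2.17-fold, limma adjusted p = 4.51e-08) and E2f8 (1.63-fold, 3.16e-08), while Rb1, the retinoblastoma protein itself, was lower (log2 fold change -0.78, limma adjusted p = 0.000155). Of 30 S phase genes 20 were higher and 5 lower, with a median log2 fold change of 0.16 against 0.02 over all tested genes. Mcm5, a subunit of the replicative helicase, was 2.50-fold higher (limma adjusted p = 5.08e-11) and Rrm2, a subunit of ribonucleotide reductase, 1.78-fold (3.51e-10), but Pcna, the sliding clamp, was lower (log2 fold change -0.17, 0.000897). Of 30 G2/M genes 17 were higher, among them Foxm1 (2.06-fold, limma adjusted p = 1.72e-11), and 8 lower, with the motor Kif11 (log2 fold change -0.61, 4.16e-08) in the latter. With 80.1% of all genes called, these counts by themselves set no list apart.

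Other CDK inhibitors fell where they were called in the second dataset, where 38.0% of all tested genes were called lower and 42.1% higher. Of the 4 listed, Cdkn2a (log2 fold change -1.08, limma adjusted p = 2e-06), Cdkn2d (-0.28, 5.78e-05) and Cdkn2b (-0.21, 0.000236) were lower in shPCBP1, all from INK4 loci. Of 17 other G1/S regulators in that dataset 6 were higher, among them Myc (1.57-fold, limma adjusted p = 3.55e-09) and the phosphatase Cdc25a (1.50-fold, 2.6e-07), and 9 were lower. Ambra1, an adaptor of the ubiquitin ligase that degrades D cyclins, was among the lower ones (log2 fold change -0.33, 2.27e-06).

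Beside the rise of Cdkn1a, the p53 targets were mixed. Of 20 others 7 were called higher and 9 lower, with a median log2 fold change of -0.12. Of all tested genes 42.1% were called higher and 38.0% lower, so counts of calls by themselves set no list apart. Phlda3 (2.41-fold, limma adjusted p = 1.03e-09), Aen (1.69-fold, 1.91e-09) and Eda2r (from 0.262 to 10.1 CPM) rose, and Zmat3 (log2 fold change -0.65, 1.2e-08) and Perp (-0.62, 3.08e-07) fell. Mesenchymal markers moved with the same contrast, with 8 of 8 tested called higher. The 11 that are listed, tested or not, summed to 812 to 829.2 CPM in NMuMG and 2024 to 2041 CPM in shPCBP1. Of 7 epithelial markers 6 were called lower and 1 higher. The part of these markers in the differences of the G1 genes was not tested. In bulk RNA fewer cells of a kind cannot be told apart from less RNA per cell.

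In FAM3C KO none of the listed genes was called by limma. The log2 fold change was negative in 27 of the 30 S phase genes (7 at an unadjusted p under 0.05) and in 29 of the 30 G2/M genes (5 at an unadjusted p under 0.05). Their medians were -0.16 and -0.17 against -0.01 over all tested genes, and 53.3% of each list lay below shPCBP1 without overlap where 12.5% of all genes did. Summed CPM of the G2/M genes was 3995 to 4126 in the 3 FAM3C KO clones and 4526 to 4830.0 in the 4 shPCBP1 lines. Both lists hold Ccna2. How many of all tested genes had a negative change or an unadjusted p under 0.05 was not counted, here or in LIFR KO. Counts of that kind therefore set no list apart. The differences in the 2 lists are small, lie in the same contrast that chose Ccnd2, and are given as a description.

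In LIFR KO the S phase list had a median of -0.17, beside -0.16 over all tested genes, and 0 of its 30 genes were called by limma (8 at an unadjusted p under 0.05). With clone 1 alone that median was 0.03, and after GC correction -0.01. Of 20 p53 targets 4 were called, all lower, where 6.47% of all genes were called and 5.55% lower. Of the list 1 was called lower after median-ratio rescaling, 1 with clone 1 alone and 0 after GC correction (limma, 2 at an unadjusted p under 0.05). Phlda3 gave 82.1, 38.0 and 60.6 CPM in the LIFR KO clones, against 120 to 143 in shPCBP1 (limma adjusted p = 0.0388). Its log2 fold change of -1.15 was -0.63 with clone 1 alone (limma adjusted p = 0.153) and -0.57 after GC correction (limma adjusted p = 0.141). Sesn2 (-0.67, limma adjusted p = 0.0529) and Bbc3 (-0.95, limma adjusted p = 0.0582) were at -0.24 and -0.26 with clone 1 alone and at -0.08 and 0.28 after GC correction, so that the direction of Bbc3 turned. The median of that list was -0.13, and its library medians ran from -0.26 to 0.10 in the 3 clones. Cdkn2d, the INK4 inhibitor p19, gave 15.3, 11.4 and 8.45 CPM in the clones against 16.8 to 20.7 in shPCBP1 (log2 fold change -0.73, limma adjusted p = 0.0572), but -0.31 with clone 1 alone and -0.21 after GC correction (limma adjusted p = 0.479 and 0.428). Cacul1, a protein that associates with Cdk2, gave 148, 166 and 166 CPM against 109 to 132 (0.43, limma adjusted p = 0.0424), with 0.32 for clone 1 alone and 0.27 after GC correction (limma adjusted p = 0.221 and 0.119).

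**Figure D5:**
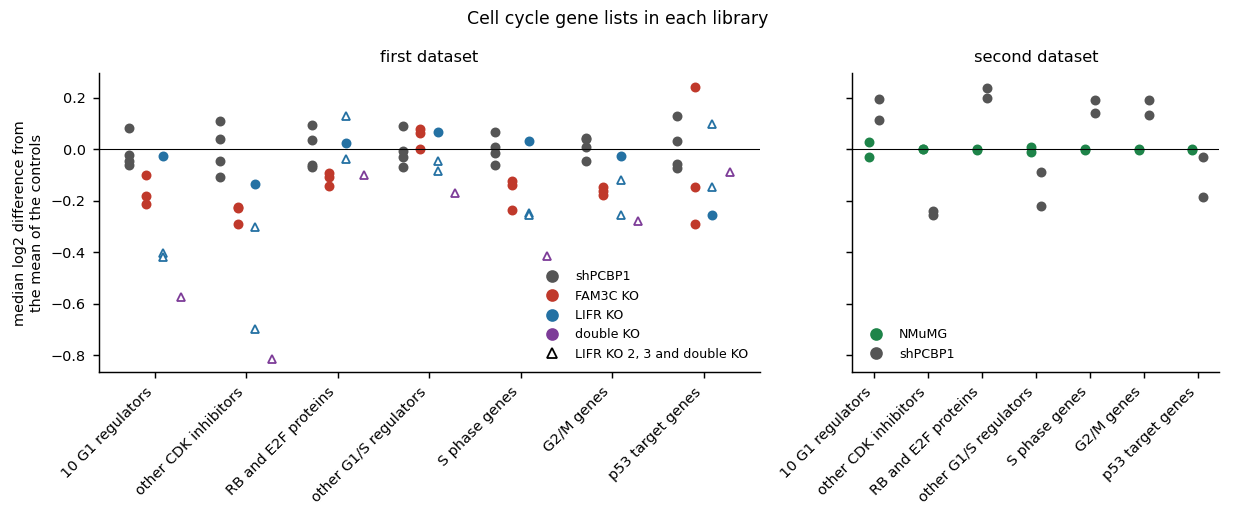
Points give, for each library, the median log2 difference from the mean of the controls (shPCBP1 in the first dataset, NMuMG in the second) over the genes of 7 lists; open triangles mark LIFR KO clones 2 and 3 and the double KO. S phase and G2/M genes lie below 0 in all 3 FAM3C KO clones (-0.24 to -0.12) and above 0 in both shPCBP1 samples of the second dataset (0.13 to 0.19), and the p53 targets scatter on both sides of 0.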

How the data were processed

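Total RNA of NMuMG derivatives was depleted of ribosomal RNA, prepared with a directional kit and sequenced as paired ends of 150 bp. The deposited values are normalized CPM, which the authors made in Partek Flow after alignment with Bowtie2 to GRCm38. The deposited tables also hold the authors' own fold changes, ratio columns, p-values and tests from DESeq, which were not used. Whether the lowest value in a library stands for no reads or for a single read is not known. Whole reads could not be recovered, so no count test was run.

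Groups follow the labels. Genes averaging 0.5 CPM or more entered the test, on log2(CPM + 0.1) with limma 3.58.1 (R 4.3.3) with a mean-variance trend and Benjamini-Hochberg adjustment over all tested genes, at adjusted p under 0.07. In the first dataset shPCBP1, FAM3C KO and LIFR KO shared 1 fit, the double KO was left out of it, and the second dataset was fitted alone. Tables and figures were made with Python 3.11.15, pandas 2.3.3, scipy 1.17.1 and matplotlib 3.10.9, and the fitting was tested on simulated data. Gene positions and exon lengths are from GENCODE M21, since most gene starts in the table of the first dataset are not those of GRCm38. GC correction was a loess fit (span 0.3) per library on exon GC content. Alternatives were other scalings, pseudocounts, filters and thresholds, the replicate number as a block, and leaving out each library. The text names the 10 members, the 5 genes most like Ccnd2 by Pearson's r of log2 values, the targeted genes, and from each list up to 3 called genes in each direction by smallest adjusted p, among those that reach 1 CPM and whose groups do not overlap. Members and lists were chosen with earlier results of these data known.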

Additional observations from a re-analysis of the deposited data

Results flagged for a closer look

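Cdk4 in CT clone 2 of the shPCBP1 group stood at 295.178 CPM, far above the other 3 lines of that group (216 to 228 CPM). The 38 tested neighbours of Cdk4 within 1 Mb had a median log2 difference from the group mean of 0.47 in the same clone and of -0.17 to -0.15 in the other 3. Cdkn1b in CT clone 1 stood at 95.284 CPM, above the other 3 lines (82.1 to 83.5 CPM), and its 11 neighbours had a median difference of 0.04 there. Both stood out by a large gap between 1 line and the rest of its group relative to the range of the group, which chance gives in about 1 of 20 groups, and 10 genes were looked at. What sets these 2 lines apart was not tested.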

How the results depend on the processing

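In FAM3C KO the number of genes called, 39 in the report, was 12 with a mean of at least 2 CPM, 1048 with the 2 groups fitted alone, 210 after GC correction and 3 to 359 when 1 library was left out. As a description only, since the members were chosen on this comparison, 2 of them were past the threshold with the groups fitted alone and 0 to 2 with 1 library left out. In LIFR KO the number of genes, 816 in the report, was 478 after median-ratio rescaling, 359 at adjusted p under 0.05, 35 with the groups fitted alone, 84 after GC correction, 281 with clone 1 alone and 5 to 7234 with 1 library left out. The extremes were without CT clone 2 (5 genes) and without LIFR KO clone 1 (7234). The members called went from 1 to 0 under median-ratio rescaling, quantile normalization, the threshold of 0.05, the groups fitted alone, GC correction and clone 1 alone, and ran from 0 to 8 with 1 library left out.

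With the replicate number as a replicate block, 15 genes were called in FAM3C KO, and 10 genes and 0 members in LIFR KO. GC correction with the replicate block left 3 genes and 0 members in FAM3C KO and 2 genes and 0 members in LIFR KO. In the second dataset the block gave 9235 genes. Deviations of samples with the same number correlated at -0.19 to 0.15 (first dataset) and 0.05 (second), so the numbers were not taken to pair samples.

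The direction in LIFR KO turned for Ccnd1 after GC correction (0.11; with the block 0.061) and for Cdkn1b after GC correction (-0.12; with the block -0.13), with clone 1 alone (-0.185) and without LIFR KO clone 2 (-0.03, in a range up to 0.18 with 1 library left out). With clone 1 alone it also turned for Ccnd3 (0.11) and Ccne2 (-0.018). In the second dataset Cdk6 turned under quantile normalization (-0.013). The cause was not tested. Tests on counts with edgeR or DESeq2 were not run, since the values are not counts. The depth of the second dataset is unknown, so what it limits there cannot be given.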
